A study of Mus musculus with 45 samples.

Results

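The long block of action potential firing was examined here by comparing 5 libraries of neurons kept in bicuculline (Bic) for 1 h and then in Bic with tetrodotoxin (TTX) for another 1 h (LP TTX) with 5 libraries of neurons kept in Bic alone for 2 h (2 h Bic). The libraries were taken by their treatment labels and paired by the number of their culture preparation (1, 3, 6, 7 or 8), and they made up 10 of the 45 RNA-seq libraries in the series. All were from hippocampal primary neuron cultures of newborn (P0) C57BL/6N mice, treated on day in vitro 10 or 11 by the labels and on day 11 by the study's methods, with 1 library a preparation in every condition, and these mixed cultures also held glia, whose division the cultures' AraC treatment limits. Bic was used at 50 µM and stayed on during the block, TTX was used at 1 µM, and neither NMDA nor TBOA was added to these 10 cultures. Untreated cultures (Control), 1 h Bic and the short protocol (SP TTX, 0.5 h of Bic followed by 0.5 h of Bic with TTX), each with 5 libraries from the same preparations, were used to describe the genes that the comparison names and to compare the long with the short block.

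Bic is an antagonist of GABA type A receptors, and its removal of synaptic inhibition makes the neurons of such cultures fire recurrent, synchronized bursts of action potentials. TTX blocks voltage-gated sodium channels and so stops this firing and the calcium entry through synaptic NMDA receptors that comes with it. Calcium signals to the nucleus through kinases such as CaMKIV and ERK, which act on CREB and on SRF with its ternary complex factors, and switch on first the immediate early genes, many of which code for transcription factors, and then later waves of genes for secreted and synaptic proteins. The difference between LP TTX and 2 h Bic is therefore a difference after equal times in Bic between firing that was stopped after the first hour and firing that went on. An RNA level reflects both synthesis and decay, which these data do not separate.

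Per library, between 18846520 and 42692080 reads were counted on genes in 2 h Bic (median 26239614) and between 23895011 and 64680212 in LP TTX (median 38220221). In the paired fit, which has the preparation as a block, 2450 genes (15.7% of 15570 tested) were higher and 2528 (16.2%) were lower in LP TTX, by edgeR's quasi-likelihood test at a Benjamini-Hochberg adjusted p under 0.05. Without the block, 1006 (6.46%) were higher and 706 (4.53%) lower. Most of the changes were small: 306 genes (1.97%) were higher and 183 (1.18%) lower by more than 0.5 on the log2 scale, 34 genes (0.218%) were higher and 41 (0.263%) lower by more than 1 on the log2 scale, and every LP TTX library lay above every 2 h Bic library for 996 genes (6.4%) and below for 487 (3.13%).

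The small changes moved with the GC content of the transcripts. Genes with a mean of at least 1 CPM were divided into 4 classes of equal size by GC content. In the class with the lowest content, 46% were higher and 1.69% lower, with a median log2 ratio of 0.16 ± 0.077 (SD over the 5 preparations), whereas 2.9% were higher and 51% lower in the class with the highest, where the median was -0.14 ± 0.070. After each library's trend on GC content and transcript length was removed, 1336 genes (8.59% of 15554) were higher and 1062 (6.83%) lower, so counts of gene groups are given for this corrected fit as well. The 2 h Bic library of preparation 8 stood apart from its group, with the lowest level for 15 of the 15 largest falls, and the LP TTX library of preparation 8 was the lowest of its group for 9 of these 15. The part of GC content in single results was not tested beyond this correction. Without preparation 8, 1938 genes were higher and 1899 lower.

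**Figure D1:**
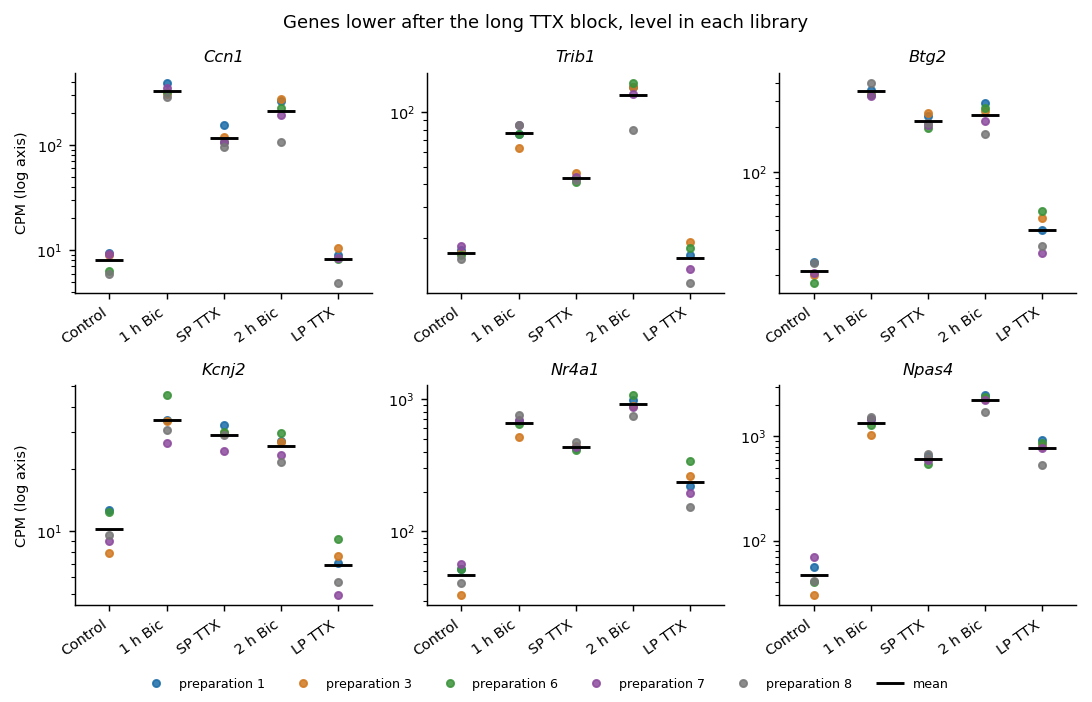
Levels of 6 genes that were lower after the long TTX block, in CPM (TMM-normalized, so scaled to the effective size of each library) on a log axis, for each library of Control, 1 h Bic, SP TTX, 2 h Bic and LP TTX, with 1 colour for each of the 5 preparations. Ccn1 lay between 106 and 271 CPM in 2 h Bic and between 4.9 and 10.4 CPM in LP TTX, a range that overlaps that of Control, whereas Npas4 stayed above all its Control libraries.

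Genes that Bic had induced within the first hour fell most. The largest fall was that of Ccn1, which codes for a secreted matricellular protein that binds integrins. Levels are in CPM and are listed in the order of preparations 1, 3, 6, 7 and 8. Ccn1 had 263, 271, 225, 190.5 and 106 CPM in 2 h Bic and 8.97, 10.4, 8.29, 8.51 and 4.9 CPM in LP TTX. The 2 groups did not overlap, and Ccn1 fell by 4.66 on the log2 scale (SE 0.059, adjusted p = 4.4e-21), or 25.3-fold. It had reached 329 ± 39.1 CPM (mean ± SD) at 1 h Bic, when TTX was added, from 7.99 ± 1.74 CPM in Control, and its LP TTX libraries overlapped those of Control. In bulk RNA from a mixed culture, fewer cells of a type and less RNA per cell cannot be told apart.

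Trib1 and Btg2 followed. Trib1, a pseudokinase that brings substrates to a ubiquitin ligase, had 138, 138, 145, 126 and 79.6 CPM in 2 h Bic and 16.3, 19.1, 17.8, 13.6 and 11.4 CPM in LP TTX, and fell by 3.02 on the log2 scale (SE 0.057, adjusted p = 3.6e-18). Its LP TTX libraries overlapped those of Control (16.7 ± 1.01 CPM). Btg2, an antiproliferative protein that recruits the deadenylase of the CCR4-NOT complex to mRNAs, had 293, 258, 270, 222 and 181 CPM in 2 h Bic and 40.1, 48.6, 54.2, 28.2 and 31.1 CPM in LP TTX, and fell by 2.63 on the log2 scale (SE 0.075, adjusted p = 2.1e-15). Every LP TTX library of Btg2 was still above every Control library (21.3 ± 2.89 CPM) although far below 1 h Bic (352 ± 29.4 CPM).

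The 15 largest falls of protein-coding genes ranged from 1.31 (Sox9) to 4.66 (Ccn1) on the log2 scale. For each of these 15 genes every LP TTX library lay below every 2 h Bic library (3.13% of all genes tested), which their choice as the largest falls largely fixed. The comparisons with 1 h Bic and Control use the same LP TTX libraries and are descriptions. For 14 of the 15 every LP TTX library also lay below every 1 h Bic library (5.0% of all genes), the exception being Serpinb2. Compared with Control, 9 of the 15 remained above every library (8.03% of all genes), 6 overlapped (Ccn1, Trib1, Kcnj2, Dusp6, Ptp4a1 and Sox9) and 0 lay below (5.05% of all genes). Leaving out any 1 preparation kept all 15 past the threshold, with adjusted p at most 0.00016 in any of these fits, and without preparation 8 Ccn1 fell by 4.7 and Serpinb2, the gene moved most, by 1.69. Ptp4a1 overlaps a second annotated model of itself on the same strand, so its counts are uncertain.

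Promoters of the largest falls are shown because the genes rose in Bic, fell in TTX and can be compared for the sites of the factors named above. Of the 5 largest falls and the 2 largest rises with a RefSeq entry (GRCm38.p6), the 250 bases before the start site are given 5′ to 3′ on the strand of the gene, with capitals marking matches to 6 motifs searched on both strands. These were the full cAMP response element (CRE, TGACGTCA), its core (TGACG, also counted inside the full CRE), the AP-1 site (TGANTCA), the Egr site (GCGNGGGCG), the CArG box of SRF and the TATA box (TATAAA). Trib1, Klf10 and Gprc5c are named only. The promoters lie at chr3:145649986-145650235, minus strand (Ccn1); chr1:134079156-134079405, minus strand (Btg2); chr4:55532476-55532725, minus strand (Klf4); chr17:26508473-26508722, minus strand (Dusp1); and chr15:101266596-101266845, plus strand (Nr4a1).
Ccn1: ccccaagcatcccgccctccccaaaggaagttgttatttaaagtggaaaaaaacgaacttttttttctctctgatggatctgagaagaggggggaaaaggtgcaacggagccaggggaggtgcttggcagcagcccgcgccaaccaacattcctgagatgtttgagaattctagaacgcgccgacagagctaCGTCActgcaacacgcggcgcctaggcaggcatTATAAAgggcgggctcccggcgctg
Btg2: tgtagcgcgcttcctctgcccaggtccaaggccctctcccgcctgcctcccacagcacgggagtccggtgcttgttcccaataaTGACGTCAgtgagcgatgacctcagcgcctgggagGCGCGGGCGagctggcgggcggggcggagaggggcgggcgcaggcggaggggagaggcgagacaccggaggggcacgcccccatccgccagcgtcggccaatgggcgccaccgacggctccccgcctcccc
Klf4: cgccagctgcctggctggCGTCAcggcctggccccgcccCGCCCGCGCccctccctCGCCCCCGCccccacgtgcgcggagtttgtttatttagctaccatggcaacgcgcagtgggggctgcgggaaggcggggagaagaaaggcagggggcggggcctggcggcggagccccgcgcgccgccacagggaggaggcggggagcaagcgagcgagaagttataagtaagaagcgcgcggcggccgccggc
Dusp1: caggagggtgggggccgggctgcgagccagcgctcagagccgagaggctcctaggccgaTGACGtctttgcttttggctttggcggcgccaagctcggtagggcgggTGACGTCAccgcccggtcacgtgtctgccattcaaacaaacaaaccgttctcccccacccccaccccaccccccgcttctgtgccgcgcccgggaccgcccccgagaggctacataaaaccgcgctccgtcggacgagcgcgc
Nr4a1: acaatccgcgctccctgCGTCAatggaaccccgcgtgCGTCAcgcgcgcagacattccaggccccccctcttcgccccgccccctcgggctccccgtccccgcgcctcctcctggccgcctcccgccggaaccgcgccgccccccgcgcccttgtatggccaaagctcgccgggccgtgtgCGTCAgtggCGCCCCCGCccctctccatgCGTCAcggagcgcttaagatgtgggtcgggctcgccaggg

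Cores of the CRE were present in each of these 5 promoters, with a full CRE at 166 to 159 bases before the start site of Btg2 and at 143 to 136 bases before that of Dusp1, and 4 cores in the Nr4a1 promoter. Egr sites were found in Btg2, Klf4 and Nr4a1, and a TATA box 25 to 20 bases before the start site in Ccn1. The RefSeq starts of Dusp1 and Nr4a1 lie inside longer annotated gene spans. Among the 12 of the 15 largest falls with an entry, 8 (66.7%) held a CRE core, 2 (16.7%) a full CRE, 3 (25%) an Egr site, 5 (41.7%) a TATA box, 1 (8.33%) an AP-1 site and 0 a CArG box. Of all 32851 promoters in the table, 17.8% held a CRE core, 1.55% a full CRE, 4.7% an Egr site, 12.4% a TATA box, 6.75% an AP-1 site and 1.47% a CArG box. Such matches are descriptions of these windows and not measured binding sites.

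Early transcription factors differed in how far they moved. Of 7 AP-1 subunits tested, 0 were higher and 6 lower in LP TTX, in the paired fit, without the block and after the GC correction alike, with a median log2 fold change of -0.52 against -0.015 over all genes tested. Lower members made up 85.7%, against 16.2% of all genes (4.53% without the block and 6.83% after the GC correction). Junb (log2 fold change -0.90, adjusted p = 4.2e-10), Jun (log2 fold change -0.76, adjusted p = 6.1e-09), Fos (log2 fold change -0.71, adjusted p = 4.1e-10) and Fosb (log2 fold change -0.52, adjusted p = 9.2e-08) were the AP-1 subunits with the largest falls. Fos, for example, had 1647, 1652, 1748, 1518 and 1129 CPM in 2 h Bic and 1025, 1017, 1053, 859 and 782 CPM in LP TTX. Its groups did not overlap, yet Fos in LP TTX was above every Control library (36.4 ± 6.86 CPM) and overlapped the level at which TTX was added (1037 ± 94.7 CPM).

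Among 6 Egr factors and their Nab corepressors, 1 was higher and 3 were lower (0 and 2 without the block, 1 and 3 after the GC correction), against 15.7% and 16.2% of all genes. Egr1 (log2 fold change -0.85, adjusted p = 7.7e-10) and Egr4 (log2 fold change -0.79, adjusted p = 1.6e-08) fell, and Egr2 (log2 fold change -0.49, adjusted p = 2.3e-06) passed the paired test but not the unpaired one (adjusted p = 0.082). Egr3 did not pass (log2 fold change -0.022, adjusted p = 0.73). The corepressor Nab2, which restrains Egr factors, was higher by 0.18 (adjusted p = 0.016), and its groups overlapped.

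Of the 3 Nr4a orphan nuclear receptors, all 3 were lower (2 without the block, 3 after the GC correction), but Nr4a1 stood apart. Nr4a1 had 973, 889.5, 1060, 869 and 743 CPM in 2 h Bic and 220.1, 263, 343, 193 and 154 CPM in LP TTX. It fell by 2.01 on the log2 scale (SE 0.072, adjusted p = 1.2e-13) and lay below its 1 h Bic level (660.5 ± 88.9 CPM) in every library. Nr4a2 fell by 0.19 (adjusted p = 0.0014) and Nr4a3 by 0.24 (adjusted p = 0.00034), with overlapping groups. Their LP TTX means, 707 and 1014 CPM, were above those at 1 h Bic, 316 and 645 CPM.

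Npas4, a neuron-specific factor that calcium entry induces, had 2473, 2290, 2396, 2258 and 1702 CPM in 2 h Bic and 918, 816, 868, 780.3 and 528 CPM in LP TTX. It fell by 1.54 on the log2 scale (SE 0.043, adjusted p = 2.1e-15), or 2.90-fold, and its LP TTX level remained well above Control (47.1 ± 15.2 CPM). Klf4, a zinc finger factor, had 68.5, 95.6, 86.9, 64.5 and 33.6 CPM in 2 h Bic and 14.2, 17.8, 19.1, 10.1 and 7.58 CPM in LP TTX, and fell by 2.38 on the log2 scale (SE 0.065, adjusted p = 1.5e-15). Together with other early transcription factors such as Atf3, Maff, Myc and further Klf genes, 18 were tested and 5 were higher and 12 lower (3 and 10 without the block, 4 and 11 after the GC correction). These counts are shares of 27.8% and 66.7%, against 15.7% and 16.2% of all genes. Klf6 (log2 fold change -0.94), Klf5 (-0.85), Maff (-0.79), Csrnp1 (-0.72) and Atf3 (-0.69) were among the lower genes, whereas Klf10 was among the higher ones and is described with the rises.

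Feedback inhibitors of the MAP kinase cascade moved both ways. Of 18 tested, 9 had been higher and 1 lower than Control after 1 h Bic, where 2.92% of all genes were higher and 1.15% lower. In LP TTX 4 were higher and 9 lower (2 and 8 without the block, 4 and 8 after the GC correction). As shares these are 22.2% and 50%, against 15.7% and 16.2% of all genes. For feedback inhibitors, the count changed to 2 higher without preparation 3 or 8. Dusp1, a nuclear phosphatase of MAP kinases, had 202, 168, 208, 160.4 and 136 CPM in 2 h Bic and 43.4, 38.4, 50.1, 30.0 and 26.2 CPM in LP TTX, and fell by 2.25 on the log2 scale (SE 0.054, adjusted p = 1.5e-16). Dusp6, which acts on ERK in the cytoplasm, had 223, 199, 245, 186 and 150.1 CPM in 2 h Bic and 69.8, 69.9, 105, 59.3 and 46.3 CPM in LP TTX, and fell by 1.56 on the log2 scale (SE 0.058, adjusted p = 1.5e-13). Spry1 (log2 fold change -0.85, adjusted p = 5.9e-09) and Dusp4 (log2 fold change -0.74, adjusted p = 4e-10) fell as well, as did Dusp5 (log2 fold change -0.60) and Spry2 (-0.50). Dusp16 and Spred1 rose, each by 0.40 (adjusted p = 3.7e-05 and 7.9e-07).

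Among the pseudokinases, early kinases and growth arrest genes, 16 of 21 tested were lower and 2 higher (13 and 1 without the block, 12 and 2 after the GC correction). Higher and lower members made up 9.52% and 76.2%, against 15.7% and 16.2% of all genes. Gadd45g, a stress-inducible growth arrest protein, had 396, 339.6, 411, 339.7 and 310.4 CPM in 2 h Bic and 113, 112, 119, 86.2 and 103 CPM in LP TTX, and fell by 1.77 on the log2 scale (SE 0.051, adjusted p = 2.4e-15). Pim1 (log2 fold change -1.26), Ier2 (-1.06), Tob1 (-0.95), Sgk1 (-0.90) and Plk2 (-0.71) also fell, which code for a kinase, a nuclear early response protein, an antiproliferative protein related to Btg2, a glucocorticoid-inducible kinase and a polo-like kinase. The exceptions were Ier5l and Trib3, which were higher by 1.47 (adjusted p = 6.7e-10) and 0.56 (adjusted p = 0.0020). Trib3 did not pass without the block (adjusted p = 0.22).

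Arc, which takes part in the endocytosis of AMPA receptors, was the synaptic gene with the largest fall. It had 1012, 802, 987, 719.7 and 702 CPM in 2 h Bic and 309, 265, 321, 172 and 225 CPM in LP TTX, and fell by 1.75 on the log2 scale (SE 0.056, adjusted p = 1.4e-14), while remaining above every Control library. Of 21 synaptic effectors tested, 5 were higher and 9 lower (3 and 4 without the block, 5 and 8 after the GC correction). The shares higher and lower were 23.8% and 42.9%, against 15.7% and 16.2% of all genes. Ptgs2 (log2 fold change -0.96, adjusted p = 2.2e-08), the inducible cyclooxygenase, and Gem (log2 fold change -0.93, adjusted p = 1.5e-06), a small GTPase that inhibits calcium channels, fell. The pentraxin Nptx2 was lower in the paired fit (log2 fold change -0.52, adjusted p = 2.2e-08) and not without the block (adjusted p = 0.13). Higher members were Cpeb4 (0.47), Nptx1 (0.37), Lrrtm2 (0.16), Rasgrp1 (0.15) and Homer1.

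**Figure D2:**
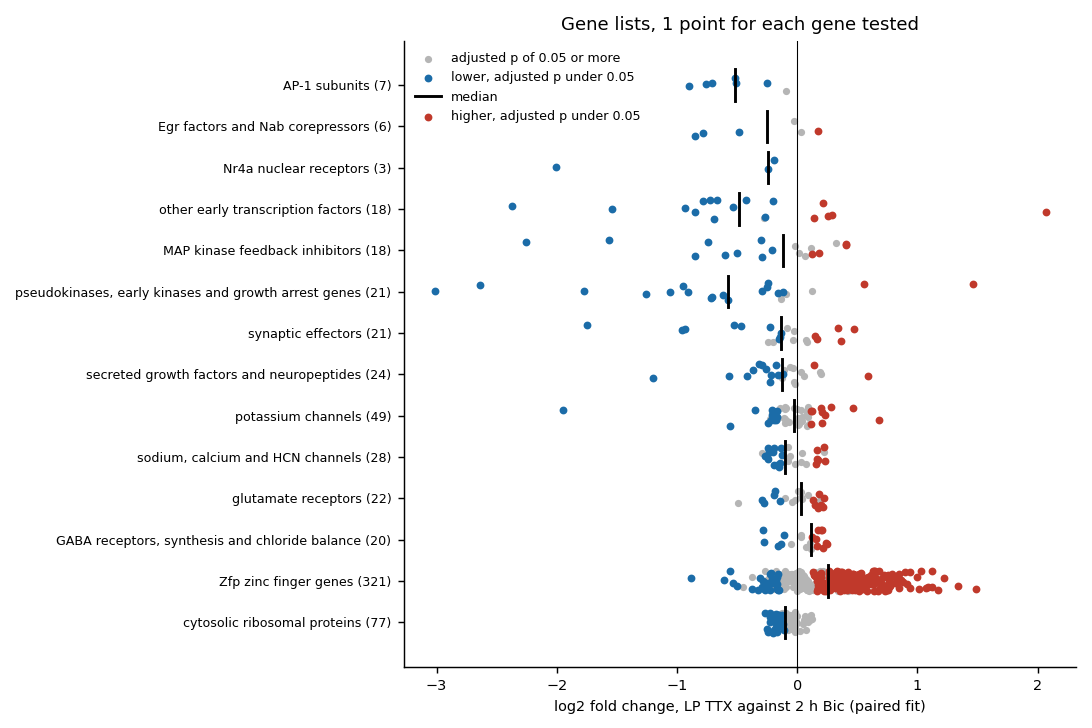
Log2 fold change of LP TTX against 2 h Bic for each gene tested in 14 gene lists, with the number tested in brackets, coloured by the paired test (blue lower, red higher, grey not past an adjusted p of 0.05), with the median as a black bar. The AP-1, early transcription factor and pseudokinase lists have medians well left of 0 (AP-1 -0.52), the ion channel and receptor lists near 0, and the Zfp genes to the right (median 0.26).

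In contrast, the later genes Homer1, Bdnf and Inhba differed little between the groups. Homer1, the postsynaptic scaffold gene, had 747, 569, 635, 674 and 649 CPM in 2 h Bic and 846, 757, 857, 792 and 945 CPM in LP TTX. It rose by 0.34 on the log2 scale (SE 0.047, adjusted p = 2.6e-05) with no overlap of the groups, and was higher by 0.11 (adjusted p = 0.024) after the GC correction. Bdnf, the neurotrophin gene, had 313, 261, 318, 306 and 334 CPM in 2 h Bic and 293, 289.9, 348, 319.6 and 357 CPM in LP TTX, with a log2 fold change of 0.053 (SE 0.041, adjusted p = 0.35) that the GC correction turned to -0.12 (adjusted p = 0.012). Inhba, the gene of the activin A subunit, had 48, 39, 50.7, 50.7 and 48.9 CPM in 2 h Bic and 42.5, 37.4, 50.2, 46.4 and 44 CPM in LP TTX, and fell by 0.12 on the log2 scale (SE 0.044, adjusted p = 0.044), which did not pass without the block (adjusted p = 0.39).

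These genes were instead well above the level at which TTX was added. Between 1 h Bic and LP TTX, a comparison that shares the LP TTX libraries and in which 2293 genes (14.8% of 15540) were higher and 2234 (14.4%) lower, Homer1 went from 167 ± 25 to 839.6 ± 71.5 CPM (log2 fold change 2.33, adjusted p = 2.7e-12). Inhba went from 10.4 ± 1.25 to 44.1 ± 4.76 CPM (2.06, adjusted p = 4.1e-11) and Bdnf from 174 ± 24.4 to 322 ± 30.9 CPM (0.87, adjusted p = 1.5e-08). In the same comparison Nr4a2 (1.15), Nptx2 (1.02) and Nr4a3 (0.65) were higher. Ccn1 (-5.34), Trib1 (-2.32), Nr4a1 (-1.55) and Npas4 (-0.82) were lower, and Fos had a log2 fold change of -0.15 (adjusted p = 0.14).

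Secreted factors and neuropeptides numbered 24 tested, of which 2 were higher and 12 lower (1 and 1 without the block, 1 and 8 after the GC correction). These counts are shares of 8.33% and 50%, against 15.7% and 16.2% of all genes. For secreted factors, the count changed to 1 higher without preparation 6. Penk, which codes for the enkephalin precursor, had 21.8, 23.6, 25.5, 29.7 and 20.1 CPM in 2 h Bic and 10.9, 8.74, 13.8, 10.8 and 9.9 CPM in LP TTX, and fell by 1.2 on the log2 scale (SE 0.077, adjusted p = 1.6e-09); its groups did not overlap. Inhbb, which codes for the other activin subunit, moved the opposite way and was higher by 0.59 (adjusted p = 2.7e-05). Adamts1, a secreted metalloprotease of the extracellular matrix that belongs to no list, had 307, 316, 267, 265 and 199 CPM in 2 h Bic and 124, 132, 109, 101 and 80.6 CPM in LP TTX, and fell by 1.33 on the log2 scale (SE 0.039, adjusted p = 3.6e-15). Serpinb2, an inhibitor of plasminogen activators, fell by 1.43 on the log2 scale (SE 0.17, adjusted p = 6e-06), with 3.04 to 5.9 CPM in 2 h Bic and 0.684 to 2.17 CPM in LP TTX.

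Of the CREB coactivators, salt-inducible kinases and phosphodiesterases, 13 were tested, with 2 higher and 4 lower (0 and 2 without the block, 2 and 2 after the GC correction). As shares these are 15.4% and 30.8%, against 15.7% and 16.2% of all genes. For this cAMP list, the count changed to 2 lower without preparation 6 or 7. Sik1 (log2 fold change -0.68, adjusted p = 4.4e-10), a kinase that CREB induces and that inhibits the CRTC coactivators, fell, as did Crtc3 (log2 fold change -0.35, adjusted p = 0.00025). Among 16 regulators of G protein signaling 1 was higher and 5 were lower (0 and 3; 0 and 5). Higher and lower members made up 6.25% and 31.2%, against 15.7% and 16.2% of all genes. For these regulators, the count changed to 2 higher without preparation 3 and 3 lower without preparation 7. Rgs2 (log2 fold change -0.49, adjusted p = 1e-07) was the one with the largest fall, and Rgs4 had 1463 to 1597 CPM in 2 h Bic and 1280 to 1426 CPM in LP TTX, without overlap.

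The locus of miR-212 and miR-132 was also lower. 1700016P03Rik (chr11:75172560-75177633, GRCm38, plus strand) is the transcript that holds the hairpins of miR-212 and miR-132, microRNAs that CREB induces in neurons. It had 68.7, 45.5, 59.5, 49.2 and 62.5 CPM in 2 h Bic and 27.3, 25.4, 22.5, 20.1 and 27.4 CPM in LP TTX, and fell by 1.22 on the log2 scale (SE 0.063, adjusted p = 5.4e-11). Counts were also assigned to the hairpin genes themselves: Mir212 had 10.6, 6.61, 8.19, 8.09 and 10.3 CPM in 2 h Bic and 5.45, 4.41, 4.39, 2.83 and 5.33 CPM in LP TTX, and fell by 1.01 on the log2 scale (SE 0.10, adjusted p = 9e-07). Mir132 had 9.63, 5.6, 7.93, 6.38 and 8.87 CPM in 2 h Bic and 5.41, 3.32, 3.77, 2.87 and 5.28 CPM in LP TTX, and fell by 0.93 on the log2 scale (SE 0.088, adjusted p = 3.1e-07). These are reads of poly-A RNA over the hairpins, not levels of mature microRNAs, and since reads that overlap several genes were not counted, the division between the 3 genes is uncertain. The mature sequences from RefSeq (GRCm38.p6, chr11, plus strand) are shown with the seed, bases 2 to 8, in capitals, since both 3p forms share the seed AACAGUC and so can pair with the same targets.
miR-212-3p (chr11:75173443-75173464): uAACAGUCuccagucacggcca
miR-132-3p (chr11:75173723-75173744): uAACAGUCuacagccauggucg

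Among 15 long non-coding and microRNA host genes tested, 4 were higher and 5 lower (0 and 2 without the block, 2 and 6 after the GC correction), the 2 being Mir212 and Mir132. The shares were 26.7% and 33.3%, against 15.7% and 16.2% of all genes. For these non-coding and host genes, the count changed to 1 higher without preparation 3 and 2 higher without preparation 6. Gm17024 fell by 2.00 (adjusted p = 5.3e-10) but lies within Ifrd1 on the same strand, so its counts are uncertain. Gm42664, Gm17066 and 9130221H12Rik were higher by 0.91, 0.79 and 0.77, the first of them inside Ptbp2 and Gm17066 inside Rbm26. B430219N15Rik was higher by 0.79 (adjusted p = 0.0068) with overlapping groups, and not without the block (adjusted p = 0.066).

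Genes raised by the block were led by Klf10, a zinc finger repressor that TGF-beta and other signals induce. Klf10 had 30.7, 26.2, 29.9, 28.5 and 31.4 CPM in 2 h Bic and 124, 126, 120.2, 121 and 131 CPM in LP TTX. The groups were far apart, and Klf10 rose by 2.07 on the log2 scale (SE 0.047, adjusted p = 9e-17), or 4.20-fold. In 1 h Bic and in Control it had 20.7 ± 2.59 and 25.1 ± 2.48 CPM, so that every LP TTX library lay above every library of 2 h Bic, 1 h Bic and Control. After the GC correction the rise was 2.03 (adjusted p = 5.2e-16).

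**Figure D3:**
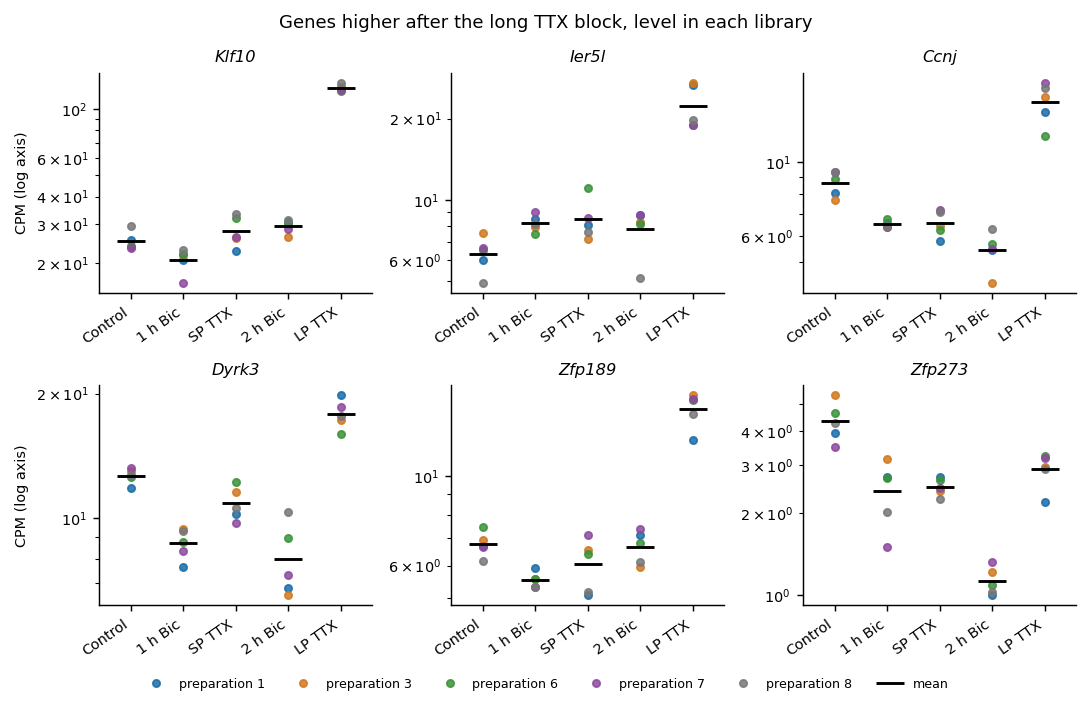
Levels of 6 genes that were higher after the long TTX block, in CPM on a log axis, for each library of Control, 1 h Bic, SP TTX, 2 h Bic and LP TTX, with 1 colour for each of the 5 preparations. Klf10 lay between 120.2 and 131 CPM in LP TTX and between 26.2 and 31.4 CPM in 2 h Bic, and Zfp273 in LP TTX was above 2 h Bic and below Control.

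Ier5l, a relative of the early response gene Ier5, had 8.79, 8.28, 8.19, 8.8 and 5.17 CPM in 2 h Bic and 26.7, 27, 19, 18.9 and 19.8 CPM in LP TTX, and rose by 1.47 on the log2 scale (SE 0.09, adjusted p = 6.7e-10). Ccnj, which codes for cyclin J, had 5.45, 4.34, 5.69, 5.48 and 6.28 CPM in 2 h Bic and 14.1, 15.7, 12, 17.3 and 16.7 CPM in LP TTX, and rose by 1.46 on the log2 scale (SE 0.089, adjusted p = 6.1e-10). Neither gene's groups overlapped, and the LP TTX means of 22.3 and 15.2 CPM were above the Control means of 6.34 and 8.68 CPM. Dyrk3, a kinase that dissolves stress granules, had 6.79, 6.53, 8.95, 7.29 and 10.3 CPM in 2 h Bic and 19.8, 17.2, 16, 18.6 and 17.6 CPM in LP TTX, and rose by 1.14 on the log2 scale (SE 0.093, adjusted p = 4.5e-08). Pard6b, a cell polarity protein, had 3.78, 3.33, 3.36, 3.67 and 4.23 CPM in 2 h Bic and 7.98, 8.57, 9.41, 7.97 and 8.52 CPM in LP TTX, and rose by 1.2 on the log2 scale (SE 0.091, adjusted p = 1.4e-08).

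Other genes among the largest rises had lower levels. Lpar2, a receptor of lysophosphatidic acid, had 1.67, 2.35, 2.19, 2.03 and 2.67 CPM in 2 h Bic and 4.76, 5.51, 4.93, 6.22 and 6.22 CPM in LP TTX, and rose by 1.32 on the log2 scale (SE 0.10, adjusted p = 2.3e-08). Socs1, a suppressor of cytokine signaling, had 0.779, 1.01, 1.22, 1.61 and 2.01 CPM in 2 h Bic and 4.08, 3.6, 2.33, 3.13 and 3.3 CPM in LP TTX, and rose by 1.22 on the log2 scale (SE 0.17, adjusted p = 3.8e-05). Gprc5c, an orphan G protein-coupled receptor, had 0.39, 0.73, 0.458, 0.742 and 0.78 CPM in 2 h Bic and 2.27, 1.91, 1.12, 2.22 and 1.76 CPM in LP TTX, and rose by 1.5 on the log2 scale (SE 0.18, adjusted p = 5.7e-06). B3gnt7, a glycosyltransferase, rose by 1.15 (adjusted p = 1.4e-05). None of these 4 genes had overlapping groups.

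The 15 largest rises of protein-coding genes ranged from 1.12 (Zfp189) to 2.07 (Klf10) on the log2 scale, and the groups overlapped for Rsl1 only (6.4% of all genes had every LP TTX library above), which their choice largely fixed. For 10 of the 15 every LP TTX library was above every Control library (8.03% of all genes), 4 overlapped Control and Zfp273 lay below it. For 11 of the 15 every LP TTX library was above every 1 h Bic library (7.34% of all genes). Leaving out any 1 preparation kept all 15 past the threshold, with adjusted p at most 0.0019, and without preparation 8 Klf10 rose by 2.08 and Zfp85, the gene moved most, by 1.72. Promoters of the 2 largest rises with a RefSeq entry, chr13:67755203-67755452, minus strand (Zfp85) and chr2:30474200-30474449, minus strand (Ier5l), are shown for comparison with those of the falls, and neither holds a match to the 6 motifs.
Zfp85: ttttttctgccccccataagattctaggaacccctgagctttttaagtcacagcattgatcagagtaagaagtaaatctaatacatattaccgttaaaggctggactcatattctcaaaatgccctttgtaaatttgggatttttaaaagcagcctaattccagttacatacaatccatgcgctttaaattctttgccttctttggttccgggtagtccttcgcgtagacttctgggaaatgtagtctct
Ier5l: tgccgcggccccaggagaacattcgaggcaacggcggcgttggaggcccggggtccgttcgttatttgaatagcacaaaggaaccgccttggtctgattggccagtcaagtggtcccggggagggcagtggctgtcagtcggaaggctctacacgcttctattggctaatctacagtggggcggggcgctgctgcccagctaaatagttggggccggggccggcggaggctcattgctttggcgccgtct

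Among the 13 of the 15 largest rises with an entry, 4 (30.8%) held a CRE core, 1 (7.69%) an AP-1 site, 1 an Egr site, 1 a TATA box and 0 a full CRE or a CArG box. With so few promoters these counts are given as descriptions only.

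Zfp genes code mostly for C2H2 zinc finger proteins, many of them KRAB-domain repressors of transposable elements and genes. They were the largest list and, by number, the one with the most members that rose. Of 321 tested, 171 (53.3%) were higher and 31 (9.66%) lower, against 15.7% and 16.2% of all genes (130 and 15 without the block, 129 and 18 after the GC correction), with a median log2 fold change of 0.26. For the Zfp genes, the count changed to 20 lower without preparation 6. Their transcripts had a median GC content of 45.2%, against 49.6% over all genes with a mean of at least 1 CPM. Zfp85 had 0.445, 0.365, 0.635, 0.806 and 1.03 CPM in 2 h Bic and 1.33, 1.99, 2.29, 1.97 and 1.73 CPM in LP TTX, and rose by 1.49 on the log2 scale (SE 0.20, adjusted p = 1.8e-05). Zfp273 had 1.00, 1.22, 1.09, 1.32 and 1.03 CPM in 2 h Bic and 2.19, 2.94, 3.23, 3.19 and 2.9 CPM in LP TTX, and rose by 1.34 on the log2 scale (SE 0.13, adjusted p = 4.1e-07). Zfp189 had 7.12, 5.96, 6.84, 7.38 and 6.12 CPM in 2 h Bic and 12.2, 15.8, 15.4, 15.5 and 14.2 CPM in LP TTX, and rose by 1.12 on the log2 scale (SE 0.077, adjusted p = 3.8e-09). In each of the 3 the groups were apart, and only Zfp189 exceeded Control.

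**Figure D4:**
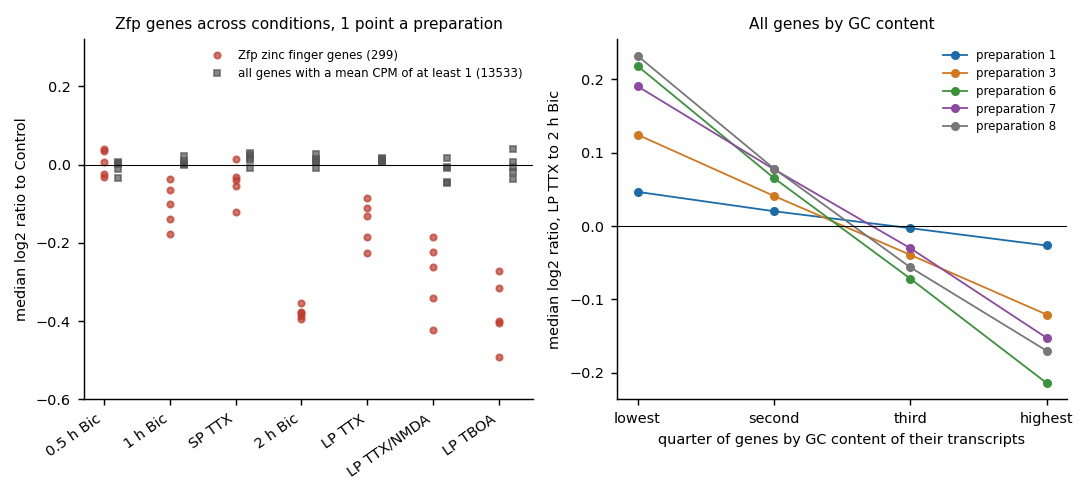
Left, median log2 ratio to Control of 299 Zfp genes (red) and of all 13533 genes with a mean of at least 1 CPM (grey) in 7 conditions, 1 point a preparation; Zfp genes were at -0.38 in 2 h Bic and -0.15 in LP TTX on average. Right, median log2 ratio of LP TTX to 2 h Bic in each of the 4 classes of genes by GC content, 1 line a preparation, which falls from the lowest to the highest class in all 5 preparations.

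Zfp786, Zfp712, Zfp11, Zfp39 and Zfp568 were higher by 1.22, 1.17, 1.12, 1.08 and 1.07. Relative to Control, the median of 299 Zfp genes with a mean of at least 1 CPM was -0.10 ± 0.057 on the log2 scale after 1 h Bic, -0.38 ± 0.016 after 2 h Bic and -0.15 ± 0.057 in LP TTX (SD, n = 5 preparations). In 2 h Bic each preparation lay between -0.40 and -0.35, and in LP TTX between -0.23 and -0.086, so the median was nearer to Control in LP TTX in all 5 preparations, while the medians of all genes were 0.0094 and 0.012. The Zfp genes that were lower included Zfp36l2 (log2 fold change -0.89, adjusted p = 5.1e-07) and Zfp36l1 (-0.56, adjusted p = 4.5e-05, and 0.19 without the block), which are not C2H2 factors but proteins that bind AU-rich mRNAs and speed their decay. Zfp184 (-0.61, adjusted p = 5.1e-06) was also lower. Since zinc finger genes are similar in sequence and reads that mapped to several places were not counted, levels of single Zfp genes are uncertain.

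Ion channels showed 1 large fall and mostly small changes. Kcnj2, the inward rectifier Kir2.1 that holds the resting potential, had 27.2, 27.1, 29.9, 23.3 and 21.6 CPM in 2 h Bic and 7.08, 7.63, 9.19, 4.94 and 5.74 CPM in LP TTX. It fell by 1.94 on the log2 scale (SE 0.071, adjusted p = 1.4e-13), or 3.85-fold, to a range that overlaps that of Control (10.3 ± 2.13 CPM). Of 49 potassium channel genes tested, 10 were higher and 12 lower (2 and 2 without the block, 7 and 4 after the GC correction). These are 20.4% and 24.5%, against 15.7% and 16.2% of all genes. Kcna4, a voltage-gated channel of the A-type current, had 37.3, 32.9, 43.1, 39.2 and 44 CPM in 2 h Bic and 58.5, 61.1, 67.2, 65.5 and 65.5 CPM in LP TTX, and rose by 0.68 on the log2 scale (SE 0.049, adjusted p = 7.8e-09). Kcnf1, a silent subunit, fell by 0.56 (adjusted p = 6.1e-09), and Kcnv1, another, rose by 0.47 (adjusted p = 2.3e-06).

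For the other channels and receptors, most of the paired counts were lost after the GC correction. Sodium, calcium and HCN channel genes numbered 28 tested, 6 higher and 13 lower (1 and 3 without the block, 0 and 3 after the GC correction), with log2 fold changes from -0.30 to 0.23. The shares higher and lower were 21.4% and 46.4%, against 15.7% and 16.2% of all genes. For these channels, the count changed to 8 lower without preparation 7. Glutamate receptor genes numbered 22, with 7 higher and 5 lower (1 and 1; 3 and 1), among them Grin2a (0.23), Grm7 (0.21), Grik5 (-0.28) and Grin2d (-0.29). The shares were 31.8% and 22.7%. For glutamate receptors, the count changed to 3 lower without preparation 6 and 2 lower without preparation 7. Of 20 genes of GABA receptors, GABA synthesis and chloride balance, 9 were higher and 5 lower (1 and 0; 0 and 0), such as Gabra4 (0.25) and Slc32a1 (-0.28). The shares were 45% and 25%. For this list, the count changed to 3 lower without preparation 3 or 6 and 2 lower without preparation 7.

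Notch, Id and Sox genes, which act in progenitors and glia, moved both ways, with 6 of 20 tested higher and 10 lower (3 and 2 without the block, 6 and 6 after the GC correction). These counts are shares of 30% and 50%, against 15.7% and 16.2% of all genes. For Notch, Id and Sox genes, the count changed to 5 lower without preparation 6 or 7. Sox9, a factor of glial progenitors and astrocytes, had 72.6, 80.8, 76.2, 75.9 and 36.9 CPM in 2 h Bic and 33.9, 33.5, 25.1, 25.9 and 19.8 CPM in LP TTX, and fell by 1.31 on the log2 scale (SE 0.073, adjusted p = 2e-10). The Notch effectors Hey2 (log2 fold change 1.00, adjusted p = 5.5e-05) and Hes1 (log2 fold change 0.65, adjusted p = 9.2e-05) and the ligand Dll1 (0.54, adjusted p = 1.3e-04) were higher, with 2.03 to 3.71 CPM of Hey2 and 3.45 to 4.58 CPM of Hes1 in LP TTX. Sox4 (log2 fold change -0.60, adjusted p = 1.4e-07) fell.

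Markers of the cell types that such cultures can hold were tested as well. Of 8 excitatory neuron markers 1 was higher and 3 were lower, of 10 inhibitory neuron markers 0 and 4, of 10 astrocyte markers 0 and 2, of 7 oligodendrocyte lineage markers 0 and 1, of 7 microglia markers 0 and 0, and of 8 endothelial and fibroblast markers 0 and 1, where 15.7% and 16.2% of all genes were higher and lower. After the GC correction the counts were 2 and 0, 0 and 1, 0 and 1, 0 and 1, 0 and 0, and 0 and 2 in the same order. Without the block Sox9 alone passed. For excitatory neurons, the count changed to 2 higher without preparation 1, 0 lower without preparation 6 and 1 lower without preparation 7 or 8. For inhibitory neurons, the count changed to 1 higher without preparation 1 or 3 and 2 lower without preparation 6 or 7. For astrocytes, the count changed to 1 higher without preparation 1 or 8, 5 lower without preparation 1 and 1 lower without preparation 6, 7 or 8. For the oligodendrocyte lineage, the count changed to 2 lower without preparation 1 or 3. For endothelial cells and fibroblasts, the count changed to 1 higher without preparation 1 and 3 lower without preparation 1. The 2 lower astrocyte markers were Sox9 and Fgfr3 (log2 fold change -0.20, adjusted p = 0.039), and Gfap, Aqp4 and Slc1a2 had log2 fold changes of -0.14, 0.13 and 0.076 (adjusted p = 0.15, 0.15 and 0.28). Summed over the astrocyte list, levels were 1130 to 1624 CPM in 2 h Bic and 1087 to 1658 CPM in LP TTX. The sums were 2877 to 3464 and 2759 to 3351 CPM for excitatory neurons, 1855 to 2638 and 1822 to 2743 CPM for inhibitory neurons, 132 to 186 and 101 to 169.9 CPM for the oligodendrocyte lineage, 8.58 to 12.6 and 8.85 to 12.6 CPM for microglia, and 119 to 333 and 118 to 291 CPM for endothelial cells and fibroblasts. No marker of these lists was at 0 in all 10 libraries, and the part of cell composition in the results was not tested.

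The genes can also be grouped by what the first hour of Bic did to them, in the 1 h Bic and Control libraries, which the comparison of LP TTX with 2 h Bic does not use. At 1 h, 443 genes (2.92% of 15184) were higher and 175 (1.15%) lower than in Control. Of 442 of the higher genes tested in both, 311 (70.4%) were lower and 21 (4.75%) higher in LP TTX, with a median of -0.26. Without the block 192 were lower and 4 higher, and after the GC correction 260 and 15. Of the 120 genes that Bic had raised by more than 1 on the log2 scale, 101 (84.2%) were lower. Of the 175 genes that Bic had lowered, 155 (88.6%) were higher and 0 lower, with a median of 0.49, with 131 higher without the block and 133 after the GC correction. Genes that Bic had raised had a median GC content of 52.6%, and those it had lowered 42.8%. Among 14512 genes not called at 1 h, 15.6% were higher and 15.1% lower.

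Among the named genes, all 14 of the largest falls tested at 1 h Bic were higher than Control there, and 8 of the 15 largest rises were lower. Klf10, with a log2 fold change of -0.28 at 1 h Bic (adjusted p = 0.041), Ccnj (-0.42) and Zfp273 (-0.87) were among the latter, whereas Socs1 (-0.074, adjusted p = 0.87) and Gprc5c (-0.44, adjusted p = 0.3) did not pass.

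The short protocol gave far fewer called changes. Its fit had more spread between libraries (common dispersion 0.00526, against 0.00264 for the long block), so small changes were harder to call. The part of this spread in the counts was not tested. In SP TTX against 1 h Bic, which uses 10 other libraries of the same preparations, 5 genes (0.0322% of 15540) were higher and 71 (0.457%) lower. Of these 71 genes, 67 were lower in LP TTX as well, with median log2 fold changes of -0.59 for SP TTX and -0.71 for LP TTX, and 3 of the 5 higher genes were higher. The difference between the effects, tested as an interaction over the 20 libraries, was called in both directions: the effect of the long block was higher for 261 (1.63% of 16039) and lower for 62 (0.387%).

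**Figure D5:**
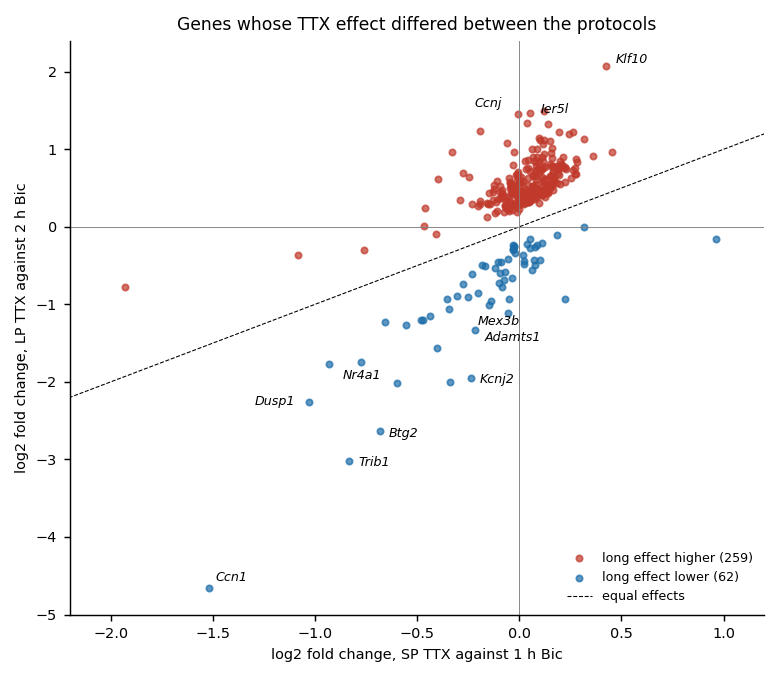
Log2 fold change of LP TTX against 2 h Bic (y axis) and of SP TTX against 1 h Bic (x axis) for the genes whose 2 effects differed by the interaction test, 259 with a higher (red) and 62 with a lower (blue) long effect; genes on the dashed line would have equal effects. Ccn1, Trib1 and Btg2 lie far below the line, and Klf10 and Ccnj far above it.

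The 261 had median log2 fold changes of 0.51 for LP TTX and 0.047 for SP TTX, and 256 were called higher in the long block. Of the 261, 59 were Zfp genes, some of them outside the Zfp list. In that list, 54 of 321 had a higher and 2 a lower LP effect, against 1.63% and 0.387% of all genes tested. The 62 had medians of -0.63 and -0.092, and 59 were called lower in the long block. Of the 15 largest falls, 10 were among the 62, and of the 15 largest rises, 12 were among the 261. The LP effect is a part of the difference tested, and it also chose these falls and rises. This largely fixed these overlaps and the counts called in the long block. Ccn1 fell by 1.52 in the SP (adjusted p = 5.5e-08) and by 4.66 in the LP, a difference of -3.13 (SE 0.18, adjusted p = 9.7e-10). Kcnj2 and Adamts1 had log2 fold changes of -0.24 (adjusted p = 0.32) and -0.22 (adjusted p = 0.18) in the SP, so that their falls were called in the LP only, with differences of -1.71 (adjusted p = 5.5e-09) and -1.11 (adjusted p = 1.4e-06). Mex3b, an RNA-binding protein gene, fell by 1.01 in the LP, with a difference of -0.87 (adjusted p = 0.00011).

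Klf10 was higher in both protocols, by 0.43 in the SP (adjusted p = 0.026) and 2.07 in the LP, with a difference of 1.64 (adjusted p = 5.5e-09). Ccnj had a log2 fold change of -0.006 in the SP and a difference of 1.47 (adjusted p = 5.1e-07). In contrast, the falls of Fos (-0.85 with SP TTX, -0.71 with LP TTX), Fosb (-0.59 and -0.52), Sox9 (-1.15 and -1.31) and Npas4 (-1.15 and -1.54) were not called different by the test, with adjusted p from 0.29 to 0.8. Such p-values do not show that the effects were equal. For Homer1 the difference was 0.47 (adjusted p = 0.031), from -0.13 with SP TTX to 0.34 with LP TTX. No GC correction was run for these differences.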

How the data were processed

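Poly-A RNA from 45 cultures (9 conditions, 5 preparations each) had been sequenced as strand-specific single-end libraries of 75 cycles. Per the submitters' processing notes and the study's methods, reads were converted with bcl2fastq 2.20.0.422, aligned to GRCm38 with STAR 2.5.4b and counted per Ensembl 94 gene with featureCounts 1.6.5, with multi-mapping reads and reads shared by genes left out. The deposited values are these raw counts per gene, not normalized by the authors, and low counts and shallow libraries limit precision. IDs were matched to GENCODE M21 (54495 of 54532).

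The counts of the 10 libraries were filtered (filterByExpr), scaled by TMM and tested in edgeR 4.0.16 (R 4.3.3) by the quasi-likelihood test with the preparation as a block, two-sided, calling a Benjamini-Hochberg adjusted p under 0.05. All adjusted p in the text come from this tool unless another is named. The numbers pair the samples: deviations from the group means correlated between same-numbered libraries by 0.199 to 0.539 over 15570 genes (mean -0.104 for different numbers). The comparisons SP TTX against 1 h Bic, 1 h Bic against Control and LP TTX against 1 h Bic were fitted in the same way, and the difference between the LP and SP effects was an interaction term. Levels are CPM from these counts with TMM factors over all 45 libraries. Preparations are separate cultures.

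Named genes were the 15 largest called falls and 15 largest rises of protein-coding genes with a mean of at least 1 CPM and the same direction in all 5 preparations, 4 and 4 of other biotypes, up to 4 called genes a list, the 8 smallest p-values of the difference test, and Npas4, Nr4a1, Trib1, Bdnf, Inhba and Homer1. Other members of lists were named after their values were seen. The members and the 37 gene lists were chosen with earlier results of these data known. Alternatives were fits without the block, without the filter, with all libraries, with DESeq2 1.42.0, without each preparation, and, chosen after seeing the data, with a correction for GC content and transcript length. On data simulated for the paired comparison of the long block, 64% of genes changed 1.2-fold, 90% of those changed 1.5-fold and 100% of those changed 4-fold were called, and 6.91% of calls were false. The simulation changed only a small set of genes, all above a minimum count, and held no GC trend between the groups. Its rates therefore need not hold for the real comparison.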

Additional observations from a re-analysis of the deposited data

Results flagged for a closer look

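The effect of TTX differed between the long and the short protocol, by the interaction test over 20 libraries, for 37 of the genes named. Naming partly fixed this count, since 8 genes were named by this test and others by the size of their LP effect. Over all 16039 genes tested, 1.63% had a higher and 0.387% a lower LP effect. The values are differences of log2 fold changes, LP minus SP, with edgeR adjusted p from 9.7e-10 (Ccn1) to 0.047 (9130221H12Rik). The LP effect was lower for Ccn1 (-3.13), Trib1 (-2.18), Btg2 (-1.94), Kcnj2 (-1.71), Gm17024 (-1.68), Nr4a1 (-1.38), Dusp1 (-1.22), Dusp6 (-1.15), Adamts1 (-1.11), Arc (-0.95), Klf6 (-0.89), Mex3b (-0.87), Gadd45g (-0.83), Penk (-0.74), Spry1 (-0.65), Olig2 (-0.61), Gem (-0.56), Dusp4 (-0.46) and Sox4 (-0.37). It was higher for Klf10 (1.64), Ccnj (1.47), Ier5l (1.41), Zfp85 (1.35), Zfp273 (1.31), Lpar2 (1.16), Socs1 (1.06), B3gnt7 (1.05), Zfp189 (1.00), Zfp786 (0.96), Pard6b (0.95), Dyrk3 (0.83), Gm17066 (0.74), 9130221H12Rik (0.60), Inhbb (0.57), Homer1 (0.47), Kdm3a (0.41) and Kdm5b (0.35).

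In 4 of 151 named genes 1 preparation lay far from the other 4 in the log2 ratio of LP TTX to 2 h Bic, by Dixon's criterion, which flags about 1 in 20 groups by chance. Arc had -2.06 in preparation 7 and -1.71 to -1.60 in the others. Gm17024 had -2.62 in preparation 1 and -1.90 to -1.73 in the others. Slc32a1, the vesicular GABA transporter, had 0.01 in preparation 1 and -0.39 to -0.30 in the others. Sox4 had -0.24 in preparation 8 and -0.73 to -0.63 in the others.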

How the results depend on the processing

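With the preparation as a block 2528 genes were lower and 2450 higher in LP TTX. Without this replicate block 706 were lower and 1006 higher, without block and filter 516 and 969, with DESeq2 without block and filter 1026 and 1294, and with the block and the GC and transcript length correction 1062 and 1336; 1516 were lower in a fit of all 45 libraries. Leaving out 1 preparation gave 1388 to 2662 lower and 1695 to 2954 higher genes, with 1388 without preparation 7 and 1590 without preparation 6. The difference between protocols was called higher for 67 and lower for 16 genes without the block, and for 105 to 164 and 27 to 53 genes when 1 preparation was left out. The first of these counts was 159, 105, 148, 154 and 164 without preparations 1, 3, 6, 7 and 8, against 261, and the second was 27 without preparation 3 and 36 without preparation 7, against 62. Genes changed by 1 h Bic numbered 618, 312 without the block and 313 to 1341 with 1 preparation left out (402, 1341 and 313 without preparations 1, 3 and 7).

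Of 151 named genes, 75 kept their direction and side of the threshold in every alternative run, and 63 were lost without the block. The GC correction reversed 6 values, to 0.0289 for Bax, -0.0226 for Dnaja1, -0.0123 for Canx, 0.0052 for Rps15, 0.0265 for Nrgn and -0.12 for Bdnf. Apart from the GC trend shown in the report, the cause of these changes was not tested. Shallow libraries limit calls for genes of low level.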

Other observations

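Gene groups outside the response to firing gave the following values, as log2 fold changes of LP TTX against 2 h Bic, with the counts without the block and after the GC correction in that order in brackets. Over all genes 15.7% were higher and 16.2% lower, 6.46% and 4.53% without the block, and 8.59% and 6.83% after the GC correction. Of 17 circadian clock genes 6 were higher and 3 lower (1 and 1; 3 and 1), which are 35.3% and 17.6%, with Per2 (0.50, adjusted p = 6.7e-06), a repressor of the clock that CREB also induces, Cry1 (0.31, adjusted p = 0.00089), Nr1d1 (0.29, adjusted p = 0.0004) and Ciart (-0.33, adjusted p = 0.0056). Of 25 chromatin and DNA methylation regulators 8 were higher and 6 lower (4 and 2; 5 and 2), which are 32% and 24%. The histone demethylases Kdm5b (0.41, adjusted p = 7.2e-07) and Kdm3a (0.40, adjusted p = 1.2e-05) and the acetyltransferase Ep300 (0.38, adjusted p = 5e-06) were higher with no overlap of the groups, and Kdm3a had 61, 48.8, 55.6, 51.6 and 52.2 CPM in 2 h Bic and 69, 68.5, 69.5, 77.1 and 73.2 CPM in LP TTX. Of 12 NF-kB and cytokine genes 2 were higher and 1 lower (2 and 1; 3 and 1). Tnfaip3 (0.69, adjusted p = 1.7e-05), an inhibitor of NF-kB signaling, and the subunit Rel (0.46, adjusted p = 6.6e-05) were higher, and Nfkbid (-0.78, adjusted p = 5.7e-06), a nuclear inhibitor protein, was lower. Of 17 actin and SRF-linked genes 2 were higher and 2 lower (2 and 1; 4 and 1), with Filip1l (0.73, adjusted p = 0.0002) and Vcl (0.32, adjusted p = 4.3e-05) higher while Ccn1 of the same list fell.

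Of 15 FoxO factors and FoxO-linked targets 3 were higher and 4 lower (0 and 2; 4 and 3), among them Cited2 (-0.69, adjusted p = 2.5e-09) and Irs2 (-0.40, adjusted p = 5.9e-06). In the Bcl2 family, 2 of 14 were higher and 3 lower (1 and 2; 2 and 0). The higher were the pro-apoptotic Pmaip1 (0.32, adjusted p = 0.00034) and the anti-apoptotic Bcl2 (0.17, adjusted p = 0.044), and the lower Bax (-0.23, adjusted p = 0.0011), Bad (-0.22, adjusted p = 0.0039) and Bcl2l1 (-0.11, adjusted p = 0.038). Bcl2 and Bcl2l1 did not pass without the block, and after the GC correction none of these 3 was lower and Bcl2 did not pass. Cytosolic heat shock genes numbered 15, with 4 higher and 2 lower (1 and 0; 1 and 4), and endoplasmic reticulum stress genes 17, with 4 and 0 (0 and 0; 2 and 0). Of 16 amino acid response genes 0 were higher and 1 was lower (0 and 1; 0 and 1), namely Ddit4 (-0.47, adjusted p = 4.9e-06). Genes of cholesterol synthesis and uptake numbered 19, with 4 higher and 7 lower (0 and 0; 0 and 5), and those of glucose uptake and glycolysis 20, with 0 and 9 (0 and 0; 1 and 4). Cytosolic ribosomal proteins numbered 77, with 0 higher and 28 lower (0 and 6; 4 and 12) and log2 fold changes from -0.27 to 0.12. All 7 mitochondrially encoded mRNAs tested of 13 were higher, by 0.15 to 0.3 (1 and 0; 0 and 0). Clustered protocadherins numbered 55, with 5 higher and 5 lower (0 and 0; 0 and 6). With 1 preparation left out, several of these counts changed by more than 1.5 times. For clock genes, the count changed to 5 lower without preparation 1. For chromatin regulators, the count changed to 2 lower without preparation 6 and 3 lower without preparation 7. For actin and SRF-linked genes, the count changed to 1 lower without preparation 3. For FoxO genes, the count changed to 1 higher without preparation 8. For the Bcl2 family, the count changed to 1 higher without preparation 3, 6 or 8. For heat shock genes, the count changed to 1 higher without preparation 6, 2 higher without preparation 7, 4 lower without preparation 1 and 1 lower without preparation 7. For endoplasmic reticulum stress genes, the count changed to 1 higher without preparation 6 or 7. For amino acid response genes, the count changed to 2 higher without preparation 1 and 6 lower without preparation 3. For cholesterol genes, the count changed to 2 higher without preparation 6 and 3 lower without preparation 7. For glycolysis genes, the count changed to 5 lower without preparation 3 or 7 and 4 lower without preparation 6 or 8. For ribosomal proteins, the count changed to 5 higher without preparation 8, 13 lower without preparation 7 and 14 lower without preparation 8. For protocadherins, the count changed to 1 higher without preparation 6 or 8, 2 higher without preparation 7, 0 lower without preparation 3 or 7 and 1 lower without preparation 6.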
